A study of Mus musculus with 36 samples.

Results

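The genes described here are 5 matrix metalloproteinases, Mmp9, Mmp12, Mmp13, Mmp14 and Mmp19, and 2 of their tissue inhibitors, Timp1 and Timp2. They were taken by gene symbol from a table of read counts for 12795 genes, and all 7 were listed and passed the expression filter. The counts came from polyA RNA of macrophages sorted by flow cytometry from mouse hearts, in 36 libraries and 8 groups. Every animal was fed tamoxifen, had its heart made ischemic for 90 min after 7 days of induction, and gave cells 7 days after the injury. The TFEB-TG genotype has a TFEB expression cassette behind a floxed stop sequence, and TFEB-wt lacks it. TFEB is a transcription factor that turns on genes of lysosomes and autophagy. Cells were split by the chemokine receptor CCR2 into CCR2neg and CCR2pos. Each genotype and fraction had a Cre-neg group and a group with Cre, which for TFEB-TG is named mac-TFEB and for TFEB-wt CX3CR1-Cre. The 4 TFEB-TG groups held 4 libraries each and the 4 TFEB-wt groups held 5 each. The Cre is a tamoxifen-dependent one driven by Cx3cr1, a gene of macrophages, and the animals also carried a Td-Tomato reporter behind a floxed stop. The series text says that Cre-neg samples lacked Cre, while the labels give one description of the Cre line for all animals, and how Cre-neg cells were obtained is otherwise not given in the sources used here. Age and sex are not given either.

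Matrix metalloproteinases are zinc-dependent proteases that cleave extracellular matrix proteins, cytokines and receptors, and most are made as inactive precursors that other proteases activate. Tissue inhibitors of metalloproteinases, the TIMPs, bind the active site and block it, and Timp2 together with Mmp14 at the cell surface also takes part in activating pro-MMP2. In the injured heart, macrophages, neutrophils and fibroblasts release these enzymes while dead muscle is cleared and replaced by scar.

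The libraries held between 13797484 and 32645783 counts (median 19676040). Levels are given as CPM, a gene's counts scaled to the total counts of its library, and comparisons between genes in CPM per kilobase of exon. Tfeb read 67.5 to 357 CPM in mac-TFEB and 6.85 to 9.38 CPM in CX3CR1-Cre of the CCR2neg fraction, and 60.1 to 280 against 4.18 to 11 CPM in CCR2pos. In TFEB-TG Cre-neg it read 12.7 to 40.4 (CCR2neg) and 18.9 to 51.3 CPM (CCR2pos), above all TFEB-wt Cre-neg libraries of the same fraction (4.41 to 11.9 and 5.01 to 6.95 CPM). All 10 macrophage markers were listed. Their summed level was 28000 to 44400 CPM over the 36 libraries. Ccr2 read 28.2 to 126 CPM in the CCR2neg libraries and 300 to 1240 CPM in the CCR2pos libraries. Of 14 neutrophil markers, 8 were listed and Retnlg, Ly6g, Ngp, Camp, Ltf and Elane were not. S100a8, among the most abundant transcripts of neutrophils, read 0.0456 to 8.49 CPM. The summed level of the 8 listed neutrophil markers was 3280 to 7730 CPM over the 36 libraries. Library 1 of TFEB-TG Cre-neg CCR2neg stood apart with a summed cardiomyocyte marker level of 517 CPM, and library 4 of CX3CR1-Cre CCR2neg with a summed mast cell marker level of 55.0 CPM. Leaving both out is described where it changed a result.

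Per kilobase of exon, Timp2 was the most abundant of the 7 genes, with a mean level of 51.8 ± 13.1 CPM per kb (SD over 36 libraries). The length used was that of all annotated exons of a gene merged, 3896 bases for Timp2 and 7237 for Mmp12. A single transcript can be shorter, so the order of the genes depends on this choice. Mmp12 (26.9 ± 22.8 CPM per kb), Mmp13 (26.8 ± 17.1) and Mmp19 (24.6 ± 12.6) followed, with mean levels that differed by less than their spread. Timp1 averaged 14.2 ± 12.9, Mmp9 averaged 7.07 ± 5.39 and Mmp14 averaged 4.90 ± 1.76 CPM per kb. The reads were not strand-specific, and 157 exon bases of Mmp12 lie on exons of the oppositely oriented Mmp1b and 789 of Mmp19 on exons of Tmem198b. Reads there cannot be assigned to one of the genes, so the levels of Mmp12 and Mmp19 are uncertain to that extent.

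Mmp12 and Mmp13, the macrophage elastase and a collagenase, lie side by side on chromosome 9 in the same orientation (build GRCm38, Mmp13 at chr9:7272514-7283331 and Mmp12 at chr9:7344381-7369499), and they are shown because they moved differently in the comparisons that follow. Promoter sequences of 5 of the 7 genes were found among RefSeq promoters (GRCm38.p6), with none for Mmp9 and Mmp19. The 250 bases before each start site were searched on both strands for the AP-1 motif TGACTCA (reverse complement TGAGTCA), the E-box CACGTG, which TFEB and related factors bind, and the TATA motif TATAAA (reverse complement TTTATA). Of 32851 RefSeq promoters 4.46% held the AP-1 motif, 6.02% the E-box and 12.4% the TATA motif. The Mmp13 window, chr9:7272264-7272513 on the plus strand, held an AP-1 motif that begins 35 bases before the start and a TATA motif that begins 16 bases before it. For Mmp12, 2 start sites were listed, and the window of the downstream one, chr9:7347124-7347373 on the plus strand, held an AP-1 motif that begins 44 bases before the start. Capitals mark these motifs.
Mmp13: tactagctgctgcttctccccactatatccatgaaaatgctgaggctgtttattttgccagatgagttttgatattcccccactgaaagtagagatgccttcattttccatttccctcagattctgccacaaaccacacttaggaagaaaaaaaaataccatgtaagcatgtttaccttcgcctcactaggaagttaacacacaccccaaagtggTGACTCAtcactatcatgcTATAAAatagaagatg
Mmp12: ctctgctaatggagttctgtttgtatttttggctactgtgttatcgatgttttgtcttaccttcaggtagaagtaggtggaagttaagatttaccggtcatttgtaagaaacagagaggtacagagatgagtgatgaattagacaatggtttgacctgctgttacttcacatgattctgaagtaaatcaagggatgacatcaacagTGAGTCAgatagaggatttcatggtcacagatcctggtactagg
The letters of the E-box were in none of the windows of Mmp12, Mmp13, Mmp14, Timp1 and Timp2. The windows of Mmp14, Timp1, Timp2 and the upstream start of Mmp12 held none of the 3 motifs. Of the 250 bases of the Timp2 window, 203 lay in annotated exons of Timp2, so little sequence before its outermost annotated start was searched. For the upstream start of Mmp12, 16 bases lay in its annotated exons.

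**Figure D1:**
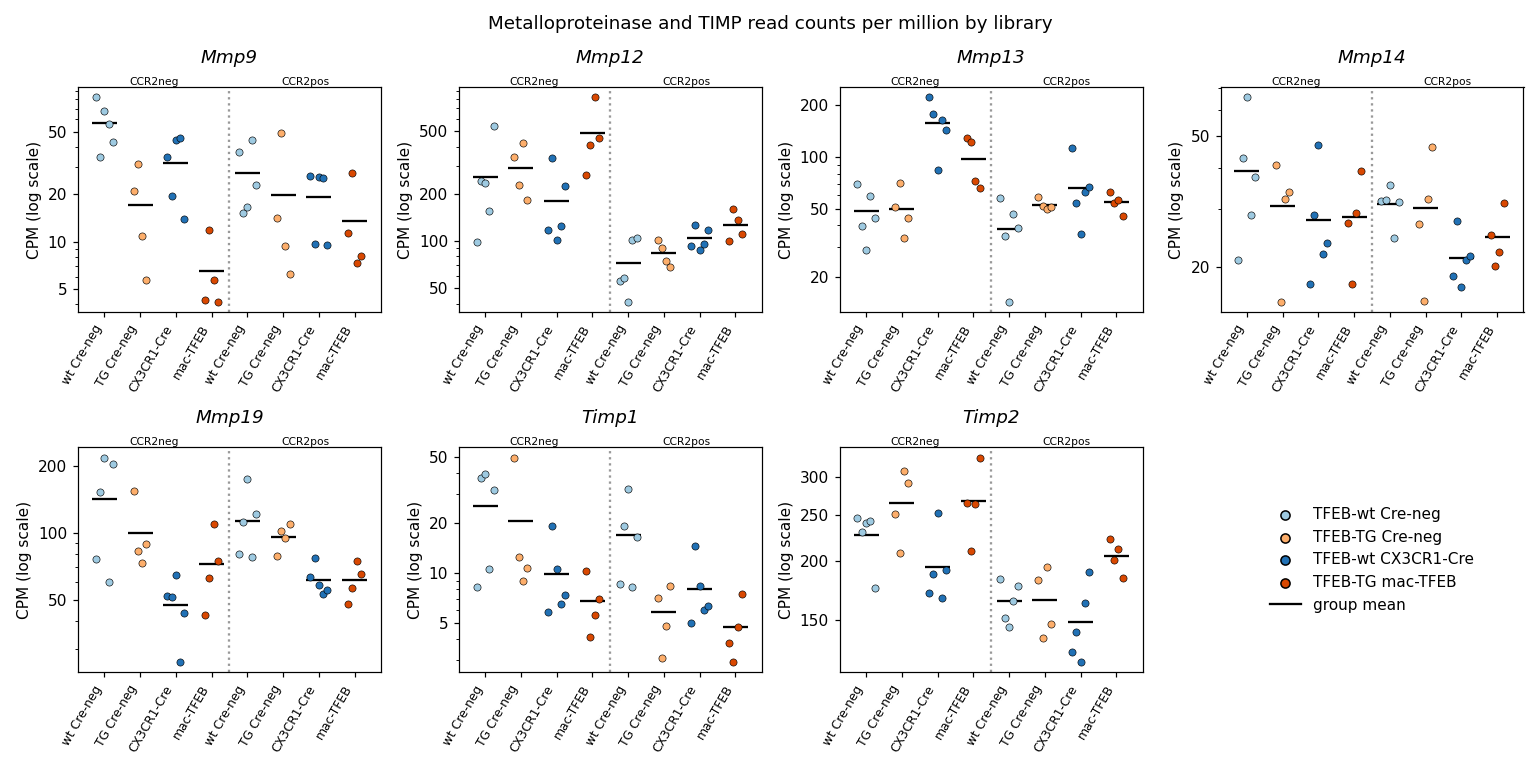
Each point is 1 library, the y axis is its level in CPM on a log scale, bars are group means, and a dotted line parts the CCR2neg groups (left) from the CCR2pos groups (right). Mmp12 lies higher on the left, Mmp13 is highest in CX3CR1-Cre CCR2neg (84.0 to 223 CPM), and Mmp9 is lowest in mac-TFEB CCR2neg (4.15 to 11.9 CPM).

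The plot of levels by library shows each gene in the 8 groups. Mmp12, which cleaves elastin, averaged 487 ± 237 CPM (SD) in mac-TFEB, 294 ± 108 in TFEB-TG Cre-neg, 254 ± 170 in TFEB-wt Cre-neg and 180 ± 99.2 in CX3CR1-Cre of the CCR2neg fraction. In CCR2pos it averaged 126 ± 26.3 in mac-TFEB, 104 ± 16.5 in CX3CR1-Cre, 83.7 ± 15 in TFEB-TG Cre-neg and 72.2 ± 29.0 CPM in TFEB-wt Cre-neg. The 4 CCR2neg groups thus held the 4 highest means. Among neighbours in the order of the 8 means, CX3CR1-Cre and TFEB-TG Cre-neg in CCR2pos differed by more than the larger of their SDs, and no other neighbours did.

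Mmp13 had a different order. It averaged 159 ± 51.1 CPM in CX3CR1-Cre, 97.2 ± 32.7 in mac-TFEB, 49.9 ± 15.5 in TFEB-TG Cre-neg and 48.3 ± 16.3 in TFEB-wt Cre-neg of the CCR2neg fraction. In CCR2pos the means were 66.5 ± 28.7 in CX3CR1-Cre, 54.5 ± 7.29 in mac-TFEB, 52.8 ± 3.80 in TFEB-TG Cre-neg and 38.2 ± 16 CPM in TFEB-wt Cre-neg. The gap between the highest and the second mean exceeded the larger SD, and the gaps between the other neighbours did not.

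The gelatinase Mmp9, which cleaves denatured collagen and basement membrane collagen, averaged 56.6 ± 19.2 CPM in TFEB-wt Cre-neg, 31.5 ± 14.3 in CX3CR1-Cre, 17.2 ± 11.3 in TFEB-TG Cre-neg and 6.52 ± 3.65 in mac-TFEB of the CCR2neg fraction. In CCR2pos its means were 27.2 ± 12.8 in TFEB-wt Cre-neg, 19.7 ± 19.7 in TFEB-TG Cre-neg, 19.3 ± 8.83 in CX3CR1-Cre and 13.5 ± 9.36 CPM in mac-TFEB. The highest group exceeded the next by more than the larger SD, and the gaps further down did not exceed it.

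Mmp19, a secreted metalloproteinase, averaged 142 ± 71.9 CPM in TFEB-wt Cre-neg, 99.6 ± 36.9 in TFEB-TG Cre-neg, 71.9 ± 27.8 in mac-TFEB and 47.4 ± 14 in CX3CR1-Cre of CCR2neg. In CCR2pos the means were 113 ± 39.2 in TFEB-wt Cre-neg, 96.1 ± 13.1 in TFEB-TG Cre-neg, 61.5 ± 9.65 in CX3CR1-Cre and 60.9 ± 11.5 CPM in mac-TFEB. The 4 Cre-neg groups held the 4 highest means, although no gap between neighbours exceeded the larger SD. Mmp14, a membrane-bound metalloproteinase, varied least among the proteases, from 21.3 ± 3.93 CPM in CX3CR1-Cre CCR2pos to 39.1 ± 16.9 CPM in TFEB-wt Cre-neg CCR2neg, again with no gap above the larger SD.

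Among the inhibitors, Timp2 averaged 267 ± 49.3 CPM in mac-TFEB, 264 ± 45.4 in TFEB-TG Cre-neg, 227 ± 29.7 in TFEB-wt Cre-neg and 194 ± 34.0 in CX3CR1-Cre of CCR2neg. In CCR2pos it averaged 205 ± 16.5 in mac-TFEB, 165 ± 27.1 in TFEB-TG Cre-neg, 164 ± 16.3 in TFEB-wt Cre-neg and 149 ± 27.6 CPM in CX3CR1-Cre. Timp1 was scarcer, from 4.76 ± 2.01 CPM in mac-TFEB CCR2pos to 25.6 ± 15 CPM in TFEB-wt Cre-neg CCR2neg. For neither inhibitor did a gap between neighbouring groups exceed the larger SD.

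Macrophages that overexpress TFEB were compared with those that carry Cre alone, mac-TFEB against CX3CR1-Cre. In CCR2neg macrophages Mmp12 rose and Mmp9 fell, and the other 5 genes did not pass the test. Mmp12 read 264, 408, 822 and 455 CPM in mac-TFEB and 118, 336, 101, 124 and 223 CPM in CX3CR1-Cre. The groups overlapped in 1 library of each, the lowest of mac-TFEB and the highest of CX3CR1-Cre. The log2 fold change of Mmp12 was 1.43 ± 0.38 (SE), or 2.69-fold, and its edgeR adjusted p (Benjamini-Hochberg over all genes) of 0.05 lay just under the threshold, at 0.0499953 before rounding. Mmp9 read 4.29, 11.9, 5.75 and 4.15 CPM in mac-TFEB and 34.3, 19.4, 44.0, 45.6 and 13.9 CPM in CX3CR1-Cre. All mac-TFEB libraries lay below all CX3CR1-Cre libraries. Its log2 fold change was -2.27 ± 0.56, or 4.84-fold lower (edgeR adjusted p = 0.0305). Thus 2 of 7 members were called, where 1.38% of all genes were: 1 higher beside 0.922% of all genes higher, and 1 lower beside 0.453% lower. The median log2 fold change of the 7 was 0.03, beside 0.01 over all genes. In RNA from sorted cells, fewer cells of a type and less RNA per cell cannot be told apart.

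Both calls depended on single libraries. The Mmp12 call was lost without library 2, 3 or 4 of mac-TFEB or library 1, 3, 4 or 5 of CX3CR1-Cre, with a log2 fold change of 1.05 and an edgeR adjusted p of 0.343 without mac-TFEB library 3 and edgeR adjusted p values from 0.0585 to 0.165 without the others. The Mmp9 call was lost without library 1, 3 or 4 of mac-TFEB or library 3 or 4 of CX3CR1-Cre (edgeR adjusted p 0.0684 to 0.154, log2 fold change -2.22 to -2.10). The Mmp12 call was also lost in a fit to the compared libraries alone (edgeR adjusted p = 0.134), with DESeq2's size factors (0.0513) and with a stricter expression filter (0.0534). Without the 2 libraries that stood apart Mmp12 was at 1.31 (edgeR adjusted p = 0.119) and Mmp9 at -2.09 (edgeR adjusted p = 0.0727). Timp2 read 265, 210, 263 and 330 CPM in mac-TFEB and 171, 187, 252, 167 and 191 CPM in CX3CR1-Cre. The ranges overlapped, and its log2 fold change of 0.46 ± 0.14 did not pass (edgeR adjusted p = 0.0922). Xist was found in 2 of the 4 libraries of each TFEB-TG group and in 4 of the 5 of each TFEB-wt group, and a fit with a term for Xist called 4 members, adding Timp2 (0.50, edgeR adjusted p = 0.0315) and a lower Mmp13 (-0.93, edgeR adjusted p = 0.0346). Of the marker lists, the macrophage gene C1qa (-0.76 ± 0.20) and the mast cell tryptase Tpsb2 (-6.56 ± 1.74) were lower in mac-TFEB, while 0 of 8 neutrophil and 0 of 10 fibroblast markers were called. Tpsb2 reached 51.3 CPM in CX3CR1-Cre CCR2neg library 4 and at most 0.201 CPM in mac-TFEB. Summed neutrophil markers were 3280 to 5120 CPM in mac-TFEB and 3390 to 4390 CPM in CX3CR1-Cre, summed fibroblast markers 485 to 1100 and 558 to 1090 CPM, and the part of these cells in the result was not tested. Neither sum measures the share of these cells. Single markers differed widely in level. S100a8, given above, and Mmp8, which averaged 3.86 CPM over the 36 libraries, made up little of the neutrophil sum, and the rest came from the other listed neutrophil markers. The fibroblast genes Col1a1, Col1a2, Col3a1 and Postn averaged 17.4 to 29.3 CPM each, and the rest of the fibroblast sum came from the other markers of that list. Single low markers do not measure the share of these cells either.

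In CCR2pos macrophages 0 of 7 members were called between mac-TFEB and CX3CR1-Cre, where 0.0391% of all genes were. At an unadjusted p under 0.05 edgeR counted 1 of 7, Timp2, and DESeq2's Wald test and limma-voom also called 0 members. Mmp12 read 100, 159, 136 and 111 CPM in mac-TFEB and 92.9, 126, 88.4, 96.3 and 117 CPM in CX3CR1-Cre, with overlapping ranges and a log2 fold change of 0.21 ± 0.38. Timp2 read 222, 201, 212 and 184 CPM against 128, 141, 122, 163 and 189 CPM. Only the lowest mac-TFEB library fell within the range of CX3CR1-Cre. The fold change on the log2 scale of 0.39 ± 0.14 had an edgeR adjusted p of 0.963. Mmp9 was at -0.58 ± 0.53 and Mmp13 at -0.36 ± 0.32.

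**Figure D2:**
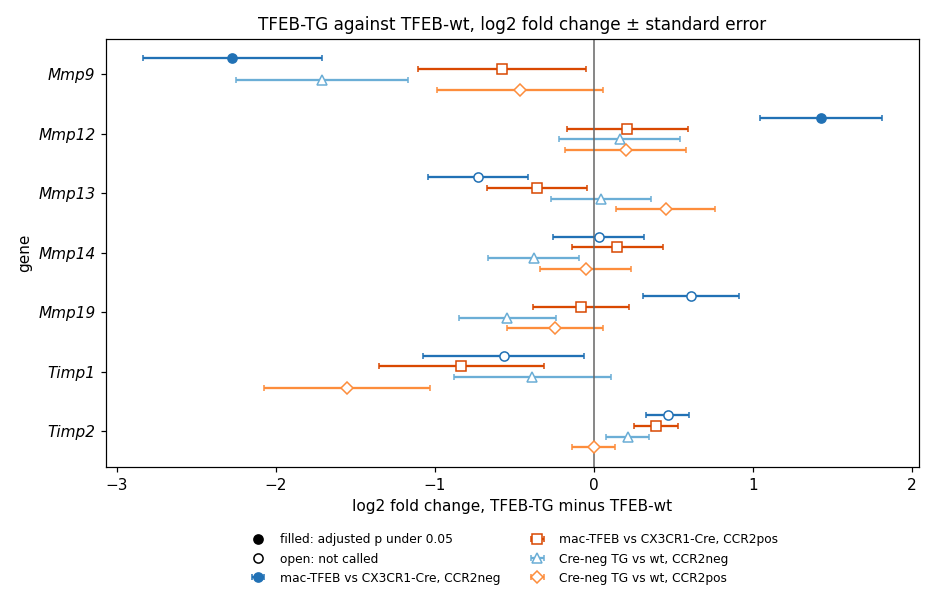
Points are log2 fold changes of TFEB-TG against TFEB-wt groups for each gene, with standard errors as bars, filled where the adjusted p was under 0.05. Mmp12 (1.43) and Mmp9 (-2.27) are filled in mac-TFEB against CX3CR1-Cre of the CCR2neg fraction, and the Mmp9 difference of the Cre-neg groups (-1.71) lies on the same side.

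The cassette without Cre was compared between TFEB-TG Cre-neg and TFEB-wt Cre-neg, the contrast by which the study set aside genes that respond to the cassette itself. In CCR2neg macrophages Mmp9 read 20.9, 31.2, 10.8 and 5.72 CPM with the cassette and 82.4, 34.5, 67.7, 55.6 and 42.7 CPM without it. The groups did not overlap. Its log2 fold change of -1.71 ± 0.54 did not pass edgeR's test (adjusted p = 0.121). It passed in 3 alternatives, limma-voom (-2.50, adjusted p = 0.0318), edgeR with a term for Xist (-2.17, adjusted p = 0.0117) and a random effect of genotype and number in limma (-1.99, adjusted p = 0.0173). Of the 7 members 0 were called by edgeR and by DESeq2's Wald test, with 0.406% of all genes called and 1 member at an unadjusted p under 0.05. Mmp12 was at 0.16 ± 0.38 and Timp2 at 0.21 ± 0.14. In CCR2pos macrophages edgeR called 0 of 7 as well, where 0.0313% of all genes were called. DESeq2's Wald test and limma-voom called 0 members there, and edgeR had 1 at an unadjusted p under 0.05, Timp1, at -1.55 ± 0.52 with an adjusted p of 1.00. Timp1 read 7.08, 3.09, 4.80 and 8.44 CPM with the cassette and 8.64, 19.2, 32.3, 8.25 and 16.5 CPM without it. The highest library with the cassette overlapped the lowest without it.

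The difference between those contrasts is the TFEB effect beyond that of the cassette. In the fit without pairing of libraries, edgeR called 0 of 7 members in CCR2neg and 0 of 7 in CCR2pos, with 0.00% of all genes called in each. In CCR2neg the difference was 1.27 ± 0.54 for Mmp12 and 1.15 ± 0.43 for Mmp19, the 2 members at an unadjusted p under 0.05 (edgeR adjusted p = 0.999 for both). For Mmp9 it was -0.56 ± 0.74. In CCR2pos no member had an unadjusted p under 0.05. The difference of the TFEB effect between fractions, CCR2pos minus CCR2neg, was 1.69 ± 0.75 for Mmp9 and -1.22 ± 0.54 for Mmp12 (edgeR adjusted p = 1.00 for both), again with 0 of 7 members and 0.00% of all genes called and 2 members at an unadjusted p under 0.05. DESeq2's Wald test and limma-voom called 0 members in each of these 3 differences. The TFEB effects in CCR2neg and CCR2pos were therefore not shown to differ for any of the 7 genes.

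The CCR2 fractions were compared within each Cre and genotype group. Mmp12 was lower in CCR2pos than in CCR2neg in 3 of the 4 comparisons, and the fourth had the same sign without passing. In mac-TFEB its log2 fold change was -1.91 ± 0.41, or 3.75-fold lower (edgeR adjusted p = 0.0175), and no CCR2pos library (100 to 159 CPM) reached a CCR2neg one (264 to 822 CPM). In TFEB-TG Cre-neg Mmp12 read 101, 91.0, 74.8 and 68.1 CPM in CCR2pos and 342, 228, 421 and 183 CPM in CCR2neg. These did not overlap, and the log2 fold change was -1.73 ± 0.41, or 3.33-fold lower (edgeR adjusted p = 0.0131). In TFEB-wt Cre-neg Mmp12 read 55.8, 57.9, 41.0, 102 and 105 CPM in CCR2pos and 98.9, 242, 236, 156 and 539 CPM in CCR2neg. The 2 highest CCR2pos libraries lay just above the lowest CCR2neg library, and the log2 fold change was -1.77 ± 0.37, or 3.42-fold lower (edgeR adjusted p = 0.00519). In CX3CR1-Cre it was -0.69 ± 0.36 (edgeR adjusted p = 0.491), with the CCR2pos library below the CCR2neg library of the same number in 5 of 5. The 4 comparisons use separate libraries, except that libraries of one number may share an animal.

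Timp2 was called lower in CCR2pos in TFEB-TG Cre-neg, where the groups separated. It read 182, 137, 194 and 147 CPM in CCR2pos and 251, 207, 309 and 291 CPM in CCR2neg. The log2 fold change was -0.61 ± 0.15, or 1.53-fold lower (edgeR adjusted p = 0.0130). In the other groups Timp2 was at -0.27 ± 0.13 (CX3CR1-Cre), -0.34 ± 0.15 (mac-TFEB) and -0.40 ± 0.13 (TFEB-wt Cre-neg), none called without the block. Differences between these values were not tested. Timp1, the inhibitor that injured tissue induces, read 7.08, 3.09, 4.80 and 8.44 CPM in CCR2pos and 49.8, 12.6, 9.06 and 10.8 CPM in CCR2neg of TFEB-TG Cre-neg. All CCR2neg values were higher, and the value of 49.8 came from the library with the high cardiomyocyte sum. The fold change on the log2 scale was -1.71 ± 0.54 (edgeR adjusted p = 0.0779), and -1.59 ± 0.34 with the replicate block, a fit in which libraries of one genotype and number are paired (edgeR adjusted p = 0.00221). Without that library it was -0.87 (edgeR adjusted p = 0.397), and -1.06 with the block and without the 2 libraries that stood apart (edgeR adjusted p = 0.0352).

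Mmp13 was called lower in CCR2pos in both Cre groups when libraries of one number were paired. In CX3CR1-Cre it read 113, 54.0, 35.7, 62.5 and 67.0 CPM in CCR2pos and 223, 178, 84.0, 165 and 143 CPM in CCR2neg. The CCR2pos value was lower in 5 of 5 pairs, although the highest CCR2pos library exceeded the lowest CCR2neg library. Its log2 fold change was -1.15 ± 0.30 without the block (edgeR adjusted p = 0.0544) and -1.18 ± 0.14 with it (edgeR adjusted p = 2.83e-06). In mac-TFEB, Mmp13 read 62.8, 53.7, 56.4 and 45.2 CPM in CCR2pos and 129, 122, 72.5 and 65.6 CPM in CCR2neg, without overlap. The fold change on the log2 scale was -0.78 ± 0.33 without the block (edgeR adjusted p = 0.454) and -0.73 ± 0.15 with it (edgeR adjusted p = 0.00423). Mmp9 of mac-TFEB was higher in CCR2pos in 4 of 4 pairs, at 1.10 ± 0.57 without the block (edgeR adjusted p = 0.633) and 0.99 ± 0.28 with it (edgeR adjusted p = 0.0360). In the TFEB-wt groups the sign of Mmp9 was the opposite: it was lower in CCR2pos in 5 of 5 libraries set beside that of the same number, at -0.60 ± 0.49 in CX3CR1-Cre (edgeR adjusted p = 0.689, and 0.137 with the block) and -0.97 ± 0.49 in TFEB-wt Cre-neg (edgeR adjusted p = 0.466). With the block Mmp9 was called lower in TFEB-wt Cre-neg, at -1.01 ± 0.23 (edgeR adjusted p = 0.00438). The lowest correlation of a pair in that group, 0.0958, lay just under the limit for pairing. In TFEB-TG Cre-neg Mmp9 was at 0.27 ± 0.55, higher in 2 of 4. In the Cre-neg groups Mmp13 was at -0.27 ± 0.30 (TFEB-wt) and 0.14 ± 0.33 (TFEB-TG) without the block, neither called. In TFEB-wt Cre-neg Mmp13 was also lower in CCR2pos in 5 of 5 pairs, at -0.32 ± 0.14 with the block (edgeR adjusted p = 0.223). In TFEB-TG Cre-neg it was higher in 3 of 4, at 0.18 ± 0.16 with the block (edgeR adjusted p = 0.545).

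**Figure D3:**
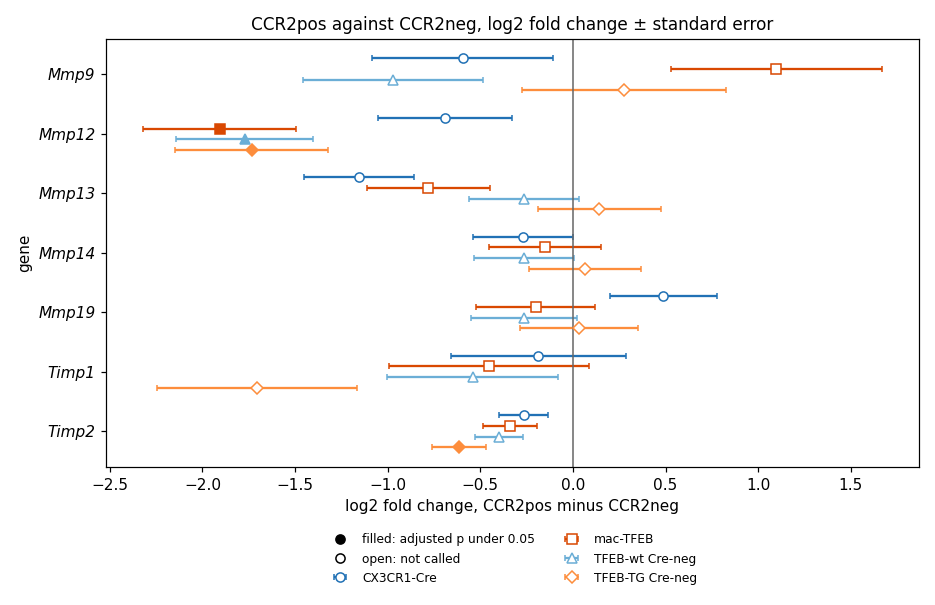
Points are log2 fold changes of CCR2pos against CCR2neg within each Cre and genotype group, with standard errors as bars, filled where the adjusted p was under 0.05 without the replicate block. Mmp12 lies left of 0 in all 4 groups and is filled in 3, and Timp2 is filled in TFEB-TG Cre-neg.

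Counted over the members, CCR2pos against CCR2neg called 0 of 7 in CX3CR1-Cre (0.797% of all genes), 1 of 7 in mac-TFEB (0.539%), 1 of 7 in TFEB-wt Cre-neg (2.35%) and 2 of 7 in TFEB-TG Cre-neg (3.26%). All of these members were lower in CCR2pos, where 0.148%, 0.821% and 0.789% of all genes were called lower in the last 3 comparisons. For CX3CR1-Cre, 2 members had an unadjusted p under 0.05 and DESeq2's Wald test and limma-voom each called 1, Mmp13. With the replicate block the counts were 1 of 7 in CX3CR1-Cre (4.31% of all genes), 3 of 7 in mac-TFEB (3.76%) and 3 of 7 in TFEB-TG Cre-neg (9.60%). In TFEB-wt Cre-neg, with 1 pair just under the limit for pairing, the block called 3 of 7, beside 808 of 12795 genes. The Mmp12 call of mac-TFEB was lost without CCR2neg library 3 (-1.53, edgeR adjusted p = 0.124), without CCR2pos library 1 (edgeR adjusted p = 0.0624) and without CCR2pos library 4 (edgeR adjusted p = 0.0843). In a fit to the compared libraries alone Mmp12 of TFEB-wt Cre-neg (edgeR adjusted p = 0.0566) and Timp2 of TFEB-TG Cre-neg (edgeR adjusted p = 0.150) were not called. In TFEB-TG Cre-neg the calls of Mmp12 and Timp2 were both lost without CCR2neg library 3 or CCR2pos library 4, and that of Timp2 also without CCR2pos library 2, with edgeR adjusted p values between 0.0525 and 0.0620. Without CCR2neg library 3 or CCR2pos library 1 of CX3CR1-Cre, the unblocked difference of Mmp13 passed (edgeR adjusted p of 0.0290 and 0.0191). Of 9 monocyte markers, 3 were called higher in CCR2pos in each Cre-neg genotype (Ccr2, Plac8 and Ly6c2) and 1, Ccr2, in each Cre group. The shares of all genes called are given above. Ccr2 is the gene of the receptor used for the sort, so its call was set by the sort. The list median was -0.02 in TFEB-wt Cre-neg, -0.06 in TFEB-TG Cre-neg, 0.27 in CX3CR1-Cre and 0.47 in mac-TFEB. The summed monocyte level was 2990 to 5660 CPM over the CCR2pos libraries and 2090 to 6600 CPM over the CCR2neg libraries. In CX3CR1-Cre, where the Mmp13 difference is given, 2 of 8 dendritic cell markers were also higher in CCR2pos, Cd209a (2.62 ± 0.52) and Flt3 (1.69 ± 0.40), with sums of 117 to 188 CPM in CCR2pos and 37.6 to 88.3 CPM in CCR2neg. The macrophage gene Fcgr1 was higher in CCR2pos of TFEB-wt Cre-neg (0.56 ± 0.14), 1 of 10. In TFEB-TG Cre-neg the cardiomyocyte genes Tnnt2 and Tnni3 were lower in CCR2pos, 2 of 7 such markers, with sums of 26.4 to 40.4 CPM in CCR2pos and 22.5 to 517 CPM in CCR2neg. The part of these cells in the member values was not tested.

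Cells with Cre were compared with Cre-neg cells of the same genotype and fraction. In CCR2neg TFEB-wt macrophages the collagenase Mmp13 rose and Mmp19 fell in CX3CR1-Cre. Mmp13 read 223, 178, 84.0, 165 and 143 CPM in CX3CR1-Cre and 69.8, 39.5, 28.6, 59.1 and 44.3 CPM in Cre-neg. All 5 CX3CR1-Cre libraries lay above all 5 Cre-neg libraries. The log2 fold change was 1.73 ± 0.30, or 3.33-fold (edgeR adjusted p = 0.00107). Mmp19 read 51.7, 51.3, 64.2, 26.1 and 43.5 CPM in CX3CR1-Cre and 76.1, 152, 218, 60.1 and 204 CPM in Cre-neg. The highest CX3CR1-Cre library exceeded the lowest Cre-neg library, and CX3CR1-Cre was lower in 5 of 5 pairs. Its log2 fold change was -1.58 ± 0.29, or 3-fold lower (edgeR adjusted p = 0.00186). These 2 of 7 members stood beside 2.60% of all genes called (0.969% higher and 1.63% lower), and both calls held in all 11 alternatives and without each of the 10 libraries in turn.

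With the replicate block 4 of 7 members were called in that comparison, beside 7.54% of all genes. The block added Mmp9, at -0.82 ± 0.49 without it (edgeR adjusted p = 0.502) and -0.90 ± 0.23 with it (edgeR adjusted p = 0.00963), and Timp1, at -1.37 ± 0.47 (edgeR adjusted p = 0.133) and -1.26 ± 0.29 (edgeR adjusted p = 0.00486). Both were lower in CX3CR1-Cre in 5 of 5 pairs. Timp1 read 5.88, 19.3, 10.6, 6.55 and 7.39 CPM in CX3CR1-Cre and 8.28, 37.8, 39.5, 10.7 and 31.9 CPM in Cre-neg. The ranges overlapped, with library 2 the highest of CX3CR1-Cre and second highest of Cre-neg. Without the block, 3 of 9 monocyte markers were lower in CX3CR1-Cre, beside 1.63% of all genes lower. Among them were Hp (-2.83 ± 0.56) and Ifitm6 (-1.07 ± 0.24), and the list median was -1.26 beside 0.01 over all genes. The summed monocyte level was 2370 to 3390 CPM in CX3CR1-Cre and 2310 to 4590 CPM in Cre-neg, and no monocyte marker was at 0 in all libraries. The macrophage gene Itgam was lower (-0.59 ± 0.16), 1 of 10, and the mast cell gene Tpsb2 was higher (6.54 ± 1.58), 1 of 2, with mast cell sums of 1.39 to 55.0 CPM in CX3CR1-Cre and 1.52 to 2.46 CPM in Cre-neg. The part of these cells in the member values was not tested. The Mmp13 and Mmp19 calls were kept without CX3CR1-Cre library 4, which held the 55.0 CPM.

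In CCR2pos TFEB-wt macrophages 0 of 7 members were called without the block, where 0.00782% of all genes were, with 3 members at an unadjusted p under 0.05 by edgeR and 0 called by DESeq2's Wald test or limma-voom. With the block 1 of 7 was called, beside 1.05% of all genes. This was Mmp13, at 0.85 ± 0.30 without the block (edgeR adjusted p = 0.649) and 0.87 ± 0.14 with it (edgeR adjusted p = 0.00108). It read 113, 54.0, 35.7, 62.5 and 67.0 CPM in CX3CR1-Cre and 57.5, 34.5, 14.3, 46.4 and 38.6 CPM in Cre-neg, higher in 5 of 5 pairs with overlapping ranges. Mmp19 read 63.4, 77.3, 58.4, 53.2 and 55.1 CPM in CX3CR1-Cre, all below its Cre-neg values of 80.6, 112, 174, 77.6 and 122 CPM. The highest CX3CR1-Cre library lay just under the lowest Cre-neg library. The log2 fold change of Mmp19 was -0.83 ± 0.29, and it was called neither without the block (edgeR adjusted p = 0.646) nor with it (edgeR adjusted p = 0.138).

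In CCR2neg TFEB-TG macrophages, mac-TFEB against Cre-neg, 0 of 7 members were called without the block, where 0.156% of all genes were, with 3 members at an unadjusted p under 0.05 by edgeR and 0 called by DESeq2's Wald test or limma-voom. With the block 3 of 7 were called, beside 2.35% of all genes. Mmp13 read 129, 122, 72.5 and 65.6 CPM in mac-TFEB and 51.2, 70.4, 33.8 and 43.9 CPM in Cre-neg, higher in 4 of 4 pairs. The ranges overlapped by 1 library of Cre-neg. The fold change on the log2 scale was 0.97 ± 0.33 without the block (edgeR adjusted p = 0.341) and 0.95 ± 0.16 with it (edgeR adjusted p = 4.33e-04). Mmp9 was lower in 4 of 4 pairs, at -1.38 ± 0.57 (edgeR adjusted p = 0.498) and, with the block, -1.25 ± 0.28 (edgeR adjusted p = 0.00916). Timp1 read 10.3, 4.16, 5.62 and 7.02 CPM in mac-TFEB and 49.8, 12.6, 9.06 and 10.8 CPM in Cre-neg, lower in 4 of 4 pairs with overlap in 1 library. Its log2 fold change was -1.55 ± 0.54 (edgeR adjusted p = 0.345) and, with the block, -1.43 ± 0.33 (edgeR adjusted p = 0.0138). With the block and without the 2 libraries that stood apart 1 of the 3 calls was left, Mmp13 (0.86, edgeR adjusted p = 0.00785), while Timp1 was at -0.90 (edgeR adjusted p = 0.201) and Mmp9 at -1.04 (edgeR adjusted p = 0.0693). Mmp12, called between mac-TFEB and CX3CR1-Cre, was not called here and was higher in 3 of 4 pairs. Its log2 fold change was 0.76 ± 0.40 (edgeR adjusted p = 0.706) and, with the block, 0.74 ± 0.31 (edgeR adjusted p = 0.264). In CCR2pos, mac-TFEB against Cre-neg called 0 of 7 members, where 0.0156% of all genes were called, and 0 of 7 with the block, where 0.203% were. There 2 members had an unadjusted p under 0.05 without the block by edgeR, Mmp19 (-0.67 ± 0.32, groups apart) and Timp2 (0.30 ± 0.15), and DESeq2's Wald test and limma-voom called 0.

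**Figure D4:**
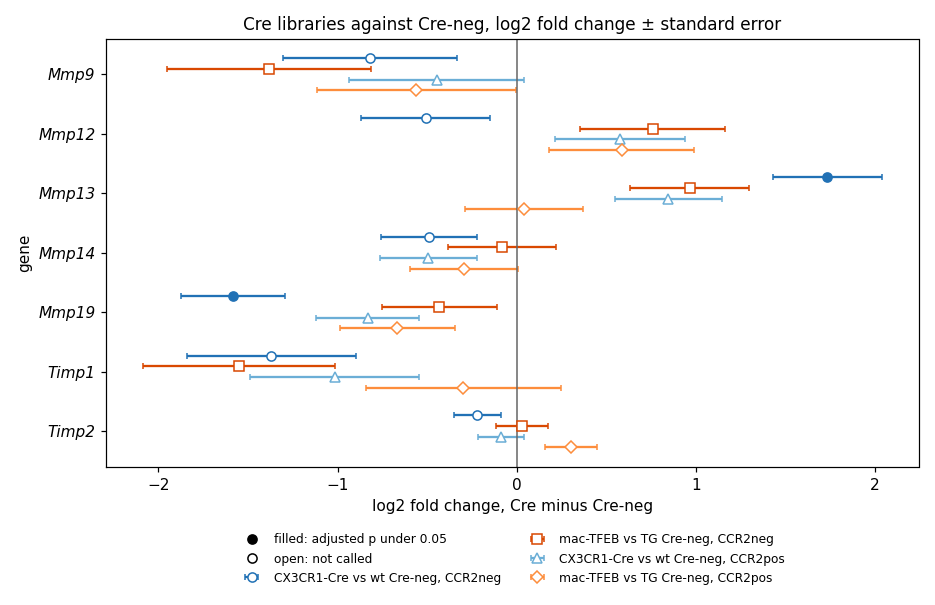
Points are log2 fold changes of Cre groups against Cre-neg groups of the same genotype and fraction, with standard errors as bars, filled where the adjusted p was under 0.05 without the replicate block. Mmp13 (1.73) and Mmp19 (-1.58) are filled in CX3CR1-Cre against Cre-neg of the CCR2neg fraction.

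Mmp14 was called in none of the 15 comparisons by edgeR, with log2 fold changes of the 12 two-group comparisons between -0.49 and 0.15. The Cre-neg and CX3CR1-Cre libraries serve in several of these comparisons, as the cassette, Cre and fraction contrasts share them, so the values are given side by side and are not independent of each other.

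Other genes of the pathway were counted in lists. Of 18 other metalloproteinases and TIMPs, 9 were measured (Mmp2, Mmp8, Mmp11, Mmp15, Mmp23, Mmp25, Mmp27, Timp3 and Timp4). By edgeR 0 of the 9 were called in any of the 15 comparisons, and 0 with the replicate block. The most abundant of them, Timp3, a TIMP that binds the extracellular matrix, had group means of 4.92 to 31.0 CPM. Of 22 ADAM and ADAMTS proteases, 16 were measured. Adam8, a membrane-bound sheddase of myeloid cells, was the list's only call in mac-TFEB against CX3CR1-Cre of CCR2neg, where it rose by 0.92 ± 0.18 (edgeR adjusted p = 0.00337), beside 1.38% of all genes called. It was lower in CCR2pos than in CCR2neg in mac-TFEB (-0.86 ± 0.19), TFEB-wt Cre-neg (-0.69 ± 0.17) and TFEB-TG Cre-neg (-0.74 ± 0.19), again 1 of 16 in each, beside 0.539%, 2.35% and 3.26% of all genes. In CX3CR1-Cre against Cre-neg of CCR2neg it was 1 of 16 as well, beside 2.60% of all genes, at -1.05 ± 0.17 (edgeR adjusted p = 4.07e-04). Adam9 was lower with the cassette in CCR2neg Cre-neg cells (-0.45 ± 0.10, edgeR adjusted p = 0.0389), beside 0.406% of all genes called. With the replicate block other genes of the list were called, named here after their values were seen. Adam22 rose in CX3CR1-Cre against Cre-neg of CCR2neg (0.68 ± 0.19) and CCR2pos (0.75 ± 0.19) and in mac-TFEB against Cre-neg of CCR2neg (1.30 ± 0.21), and Adam19 rose in the first of these (0.56 ± 0.11). In CCR2pos against CCR2neg, Adam19 (-0.43 ± 0.11) and Adam33 (-0.88 ± 0.21) were lower in CX3CR1-Cre, and in TFEB-TG Cre-neg Adam33 was lower (-0.75 ± 0.23) and Adam9 higher (0.32 ± 0.09). Without the block, Adam8 and Mmp12 were called in the same direction in mac-TFEB against CX3CR1-Cre of CCR2neg and in 3 fraction comparisons.

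Among activators and surface regulators, 20 of 25 genes were measured. In CCR2pos against CCR2neg, 3 of 20 were lower in TFEB-wt Cre-neg, beside 0.821% of all genes lower. The list median was -0.19 beside -0.01 over all genes. These 3 were the tetraspanins Cd9 (-1.42 ± 0.24) and Cd151 (-0.89 ± 0.21) and Serpinb2 (-2.89 ± 0.62), an inhibitor of plasminogen activators. In TFEB-TG Cre-neg Cd9 (-1.30 ± 0.27) and Serpinb6a (-0.70 ± 0.16) were lower and Plaur, the urokinase receptor, was higher (0.64 ± 0.16), beside 3.26% of all genes called. In mac-TFEB Cd9 was lower (-1.11 ± 0.27, edgeR adjusted p = 0.0498), beside 0.539% of all genes called. In CX3CR1-Cre against Cre-neg of CCR2neg Serpinb2 fell (-2.29 ± 0.60), 1 of 20 beside 2.60% of all genes. With the block, CCR2pos against CCR2neg had 3 of 20 lower in CX3CR1-Cre (Cd9, Lrp1 and Serpinb2), 3 lower in mac-TFEB (Cd9, Lrp1 and Serpinb6a), and 6 lower and 1 higher in TFEB-TG Cre-neg. Of all genes the block called 4.31%, 3.76% and 9.60% in these groups. In TFEB-wt Cre-neg it called 6 of 20 lower, beside 808 of 12795 genes. In the Cre against Cre-neg comparisons the block called Serpinb2 lower in CX3CR1-Cre of CCR2neg and CCR2pos (-1.91 ± 0.44 in the latter) and in mac-TFEB of CCR2neg (-2.50 ± 0.43). Of all genes 7.54%, 1.05% and 2.35% were called there. Plau, the urokinase, was higher in CCR2neg in both genotypes (0.74 ± 0.15 and 0.67 ± 0.16), and Cd9, Plgrkt and Serpinb6a were lower in CX3CR1-Cre of CCR2neg. Genes called with the block alone are named after their values were seen.

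Without the block, the list of matrix proteins, with 24 of 26 measured, had 1 call in the 15 comparisons. This was Fn1 or fibronectin, lower in CX3CR1-Cre than in Cre-neg of CCR2neg (-2.15 ± 0.43, edgeR adjusted p = 0.00358), beside 2.60% of all genes called there. With the block more of the 24 were called, named here after their values were seen. In CX3CR1-Cre against Cre-neg of CCR2neg 4 were lower, Fn1 (-2.05 ± 0.30), Thbs1 or thrombospondin (-1.75 ± 0.22), Spp1 or osteopontin (-1.64 ± 0.18) and Lgals3 (-0.50 ± 0.13), and 1 was higher, the collagen gene Col14a1 (0.97 ± 0.17), beside 7.54% of all genes called. In CCR2pos 4 were lower, Vcan (-2.13 ± 0.51), Thbs1 (-1.50 ± 0.22), Spp1 (-0.84 ± 0.17) and Tgfbi (-0.39 ± 0.09), beside 1.05% of all genes. In mac-TFEB against Cre-neg of CCR2neg Fn1 (-1.66 ± 0.33), Thbs1 (-1.11 ± 0.24) and Spp1 (-1.10 ± 0.20) were lower and Lgals3 was higher (0.56 ± 0.15), beside 2.35% of all genes, and in CCR2pos Thbs1 was lower (-1.23 ± 0.24), beside 0.203%. In CCR2pos against CCR2neg Spp1 was lower in mac-TFEB (-1.06 ± 0.20) with Lgals3, beside 3.76% of all genes called. In TFEB-TG Cre-neg Spp1 (-1.31 ± 0.20) and Fn1 were lower and Tgfbi was higher, beside 9.60% of all genes. In TFEB-wt Cre-neg, with 1 pair just under the limit for pairing, Spp1 (-0.95 ± 0.17) and Fn1 (-1.19 ± 0.29) were lower, beside 808 of 12795 genes. In CX3CR1-Cre Col14a1 was lower (-0.90 ± 0.18), beside 4.31% of all genes. Of the TFEB effect beyond the cassette in CCR2neg, the block called 1 of 24, Lgals3 (1.06 ± 0.20, edgeR adjusted p = 0.0183), beside 32 of 12795 genes. Without the 2 libraries that stood apart the block called 11 genes in that difference.

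All 30 cytokine and transcription factor regulators were measured. In mac-TFEB against CX3CR1-Cre 0 of 30 were called in either fraction by edgeR. In CCR2pos against CCR2neg 3 of 30 were higher in TFEB-TG Cre-neg, namely the AP-1 subunit Fosb (0.82 ± 0.18), Stat3 (0.42 ± 0.10) and Il1b (1.05 ± 0.29), beside 3.26% of all genes called. In TFEB-wt Cre-neg Stat3 (0.35 ± 0.09) and Il10 (1.20 ± 0.33) were higher, 2 of 30, beside 2.35% of all genes called. With the replicate block more were called. In 3 groups all of them were higher in CCR2pos. In TFEB-TG Cre-neg they were 8 of 30 (9.60% of all genes called in either direction). In mac-TFEB they were 7 of 30 (3.76%) and in CX3CR1-Cre 4 of 30 (4.31%). Fosl2, Il10 and Il1b were among them in each of these 3 groups, with Il10 at 1.18 ± 0.12, 0.91 ± 0.12 and 0.90 ± 0.10, and Il1rn was the remaining one in CX3CR1-Cre. TFEB-wt Cre-neg had its lowest pair correlation just under the limit for pairing. There the block called 5 of 30 higher and 1 lower, beside 808 of 12795 genes called in either direction. Fosl2, Il10 and Il1b were among the higher ones there too, and the lower one was Il6 (-1.01 ± 0.24). These too are named after their values were seen. In CX3CR1-Cre against Cre-neg of CCR2neg 3 of 30 were higher, Runx1 (0.60 ± 0.14), Stat3 (0.34 ± 0.09) and the NF-kB subunit Relb (0.55 ± 0.16, named after its value was seen), and 1, the cytokine Il6, was lower (-1.50 ± 0.42). The list median there was 0.21 beside 0.01 over all genes, and 2.60% of all genes were called. With the block Tnf was also higher (0.41 ± 0.08) and Il1rn lower (-0.69 ± 0.16), Tnf was higher in CCR2pos (0.33 ± 0.08), and in mac-TFEB against Cre-neg of CCR2neg Tgfbr1 was higher (0.50 ± 0.12) and Il6 lower (-1.16 ± 0.27).

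Genes with the most similar pattern were found for each member by Pearson's correlation of log2 CPM over the 36 libraries, among 7711 genes, as a description. The libraries share group, number and depth differences. Mmp12 was most like Cd9 (r = 0.85), Rhoc (0.83) and Atp6v0d2 (0.81), and Mmp13 was most like St3gal6 (0.88), Ch25h (0.85) and Lilra5 (0.84). Mmp9 was most like Pla2g2d (0.82), Sesn1 (0.80) and Gfra2 (0.79), and Mmp19 was most like Slc7a11 (0.89), Sgms2 (0.88) and Olr1 (0.86). Mmp14 was closest to Tmem165 (0.85), Timp1 to Arg1 (0.77) and Timp2 to Gpnmb (0.83). With the 8 group means removed, Slc7a11 (0.84) and Olr1 (0.83) still ranked highest for Mmp19 and Tmem165 (0.89) for Mmp14, and Cd9 was among the 3 closest for Mmp12 (0.73). For Mmp13 the closest genes then were Fcrls (0.89), Cd86 (0.88) and Cd83 (0.87), for Mmp9 Gramd3 (0.82), for Timp1 Chil3 (0.80) and for Timp2 Ddx3x (0.81).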

How the data were processed

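The authors deposited whole-number read counts per gene for all 36 libraries. Per the labels' protocols, SMARTer Ultra Low cDNA was sequenced as non-stranded single reads, and the submitters' processing notes name Bowtie2, TopHat2 2.0.10, HTSeq, DESeq, edgeR and build GRCm38. From these deposited counts, CPM and log2 values were calculated here. Differences were tested in R 4.3.3 by the quasi-likelihood method of edgeR 4.0.16 (TMM, 8 group means in 1 fit, Benjamini-Hochberg over 12795 genes), called at an adjusted p under 0.05. Standard errors were obtained from each log2 fold change and its F statistic. The test was checked on simulated counts. No source says that replicate libraries came from separate animals, so p-values measure the spread between libraries. At these depths every member had at least 54 counts in each library, and that spread, not counting error, set the precision.

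Same-numbered libraries within a genotype deviated together from their group means (lowest correlation 0.14 to 0.38 in 7 of 8 comparisons within a genotype, 0.0958 for the fractions of TFEB-wt Cre-neg) and not between genotypes (lowest -0.42 to -0.20). The block was therefore used beside the unblocked fit for those 7. For the fractions of TFEB-wt Cre-neg, results with the block are given where that group is named with it. Alternatives were DESeq2 1.42.0's size factors and Wald test, limma-voom (3.58.1) with quality weights, genotype and number as a random effect in limma, the block, a term for Xist (10 CPM), no filter, a stricter filter (1 CPM in 9 libraries), a fit to the compared libraries alone and leaving out each library. The fits without the 2 libraries that stood apart were chosen after seeing the data. Members and lists were chosen with earlier results of these data known. The text names the 7 members, up to 3 called list genes per direction in the TFEB and fraction comparisons and 2 in the others, and the genes most correlated with each member. The values of 1 marker gene are not reported here.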

Additional observations from a re-analysis of the deposited data

Results flagged for a closer look

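Of the 56 sets of 4 or 5 libraries (7 genes in 8 groups), 3 held a library whose level lay far from the others of its group by Dixon's test at the 95% level, which chance gives in about 1 of 20 groups. Timp1 read 49.8 CPM in library 1 of TFEB-TG Cre-neg CCR2neg, where the next highest library read 12.6 CPM. The same library had the summed cardiomyocyte marker level of 517 CPM and the highest summed fibroblast level of its group (1470 CPM, the others 418 to 607 CPM). Timp2 read 175 CPM in library 5 of TFEB-wt Cre-neg CCR2neg, below the next lowest value of 230 CPM. It read 252 CPM in library 3 of CX3CR1-Cre CCR2neg, above the next highest value of 191 CPM.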

How the results depend on the processing

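Counts of called members (of 7) changed as follows, and the cause was not tested. For mac-TFEB against CX3CR1-Cre in CCR2neg, 2 members became 1 with DESeq2's size factors, the compared libraries alone or the stricter filter, 5 with limma-voom, 3 with DESeq2's Wald test (adding Timp2), 4 with the Xist term and 0 without the 2 libraries that stood apart (0 to 2 over left-out libraries). For the cassette in CCR2neg, 0 became 1 with limma-voom, the random effect and the Xist term. For CCR2pos against CCR2neg in CX3CR1-Cre, 0 became 1 with DESeq2's Wald test, limma-voom, the random effect, the Xist term and the replicate block with or without those 2 libraries (0 to 1 over left-out libraries). In mac-TFEB, 1 became 3 with the block, with or without the 2 libraries (0 to 1 over left-out libraries). In TFEB-TG Cre-neg, 2 became 1 with the compared libraries alone and 3, adding Timp1, with DESeq2's Wald test, the Xist term and the block with or without the 2 libraries (0 to 2 over left-out libraries). In TFEB-wt Cre-neg, where 1 of the 5 same-numbered pairs was correlated at 0.0958, just under the limit for pairing (mean 0.33), 1 became 0 with the compared libraries alone and 3 with the random effect or the replicate block, with or without the 2 libraries (adding Mmp9 and Timp2). For CX3CR1-Cre against Cre-neg, 2 became 4 in CCR2neg with the random effect or the block, with or without the 2 libraries, and 0 became 1 in CCR2pos with the block, with or without them. For mac-TFEB against Cre-neg in CCR2neg, 0 became 1 with the random effect, 3 with the block and 1 with the block without the 2 libraries. The block changed no other call of a member. Over all genes, 176 calls for mac-TFEB against CX3CR1-Cre in CCR2neg became 1351 with limma-voom, 428 with the Xist term and 67 with the compared libraries alone. The TFEB effect beyond the cassette in CCR2neg had 0 calls over all genes and 32 with the block, none of them a member. Of 2261 settings of single members, 2189 kept direction and side of the threshold or stayed uncalled, 27 lost a call, 45 gained one and 0 reversed a called direction. Group sizes of 4 and 5 limit the precision, and Mmp9 and Timp1, with levels under 10 CPM in some groups, had the widest standard errors.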
